A study of Homo sapiens with 9 samples.

Results

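The regions described here carried an H3K4me3 peak in each METTL3-KO library and in none of the 7 libraries of the other 3 groups. They numbered 796 of the 30404 regions of the series (2.62%), and they are called METTL3-KO-only regions. They were chosen by the peak calls of all 9 libraries: peaks sharing at least 1 bp were merged across libraries, and presence or absence of a listed peak decided membership. The calls and signals that made the choice are therefore given as a description, and no test was run on them. H3K4me3 was mapped by CUT&RUN in HEL, an established human erythroleukemia cell line grown in RPMI with serum. All groups carried a CRISPR guide: a non-targeting control guide (NTC, 3 libraries) or guides that knocked out METTL3, METTL14 or WTAP (2 libraries each). Whether the knockout cells were a pool or a clone is not given in the sources used here, and the peak lists hold no measure that checks a knockout. The same filter on the other groups found 12 METTL14-KO-only regions (0.0395% of all regions) and 65 WTAP-KO-only regions (0.214%).

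H3K4me3 is the trimethylation of lysine 4 of histone H3, deposited by SETD1 and KMT2 complexes and removed by KDM5 demethylases, and it is found at the starts of active genes, above all at starts rich in CG dinucleotides. METTL3 is the catalytic subunit of the m6A RNA methyltransferase, METTL14 is its RNA-binding partner and WTAP is the adaptor that places the pair in nuclear speckles. The authors asked whether the mark depends on this enzyme. The question addressed by the METTL3-KO-only regions is the opposite one: where a knockout library listed the mark and the control libraries did not.

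The lists held 21724 to 21941 peaks for NTC, 9369 and 9205 for METTL3-KO, 5286 and 3169 for METTL14-KO and 3160 and 3673 for WTAP-KO. Each value is a spike-in calibrated signal of a peak, and the signal of a region is the sum over its peaks in 1 library. The lists give no read totals, so depth is unknown and precision is limited by having 2 or 3 libraries a group. In bulk libraries, fewer cells with the mark and less of it per cell cannot be told apart. All lists held peaks of 150 to 2000 bp only, and peaks in a list stood at least 200 bp apart.

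Sequence of 5 METTL3-KO-only regions is shown first, since the regions differed in CG content. Each is the middle 200 bases of the stretch shared by both METTL3-KO peaks (144 bases, the whole shared stretch, at PANX1), on the forward strand of hg19, with each CG in capitals. By the lower of the 2 METTL3-KO signals, ATP8A1 was the highest region at a protein-coding start and HPSE2 the highest in a gene body. PANX1 was the region nearest to an NTC peak. CISH and RPL24, the list genes of highest signal with a region over the start and no NTC peak, were added after the values were seen.
ATP8A1, chr4:42657995-42658194: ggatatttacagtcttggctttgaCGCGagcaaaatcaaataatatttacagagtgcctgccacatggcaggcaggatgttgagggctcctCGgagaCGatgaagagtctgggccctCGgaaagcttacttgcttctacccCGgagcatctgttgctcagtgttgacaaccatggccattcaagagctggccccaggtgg
HPSE2, chr10:100992497-100992696: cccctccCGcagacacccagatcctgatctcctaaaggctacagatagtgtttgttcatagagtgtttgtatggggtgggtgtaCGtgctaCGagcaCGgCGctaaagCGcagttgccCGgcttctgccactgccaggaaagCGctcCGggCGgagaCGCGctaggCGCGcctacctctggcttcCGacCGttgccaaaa
PANX1, chr11:93862839-93862982: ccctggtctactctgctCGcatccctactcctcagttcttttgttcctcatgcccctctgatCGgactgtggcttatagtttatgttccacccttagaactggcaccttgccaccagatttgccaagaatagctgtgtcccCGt
CISH, chr3:50649379-50649578: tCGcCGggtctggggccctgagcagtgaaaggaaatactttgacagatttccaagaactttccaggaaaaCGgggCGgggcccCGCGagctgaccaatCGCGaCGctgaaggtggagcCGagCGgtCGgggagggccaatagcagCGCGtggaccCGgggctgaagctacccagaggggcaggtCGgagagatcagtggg
RPL24, chr3:101405045-101405244: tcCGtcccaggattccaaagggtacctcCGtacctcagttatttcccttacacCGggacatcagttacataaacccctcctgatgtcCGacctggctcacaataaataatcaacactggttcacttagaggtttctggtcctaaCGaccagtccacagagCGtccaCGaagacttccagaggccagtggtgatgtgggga
The CISH and HPSE2 stretches each held 16 CG dinucleotides. RPL24 held 7, ATP8A1 6 and PANX1 3.

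METTL3-KO-only regions lay mostly at gene starts. Of the 796, 650 (81.7%) lay within 1 kb of an annotated start of a protein-coding gene, against 17313 of all 30404 regions (56.9%). A further 56 (7.04%) lay only at starts of other annotated genes such as long noncoding RNAs. Exons away from any start held 15, introns 53, and 22 lay outside genes. Among regions called in both METTL3-KO and all 3 NTC libraries, of which there were 3060, the share at protein-coding starts was 85.5%, and among the 757 regions called in all 6 KO libraries and no NTC library it was 84.0%. Of the METTL14-KO-only regions 6 of 12 lay at such starts, and of the WTAP-KO-only regions 9 of 65.

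Of the 796, 306 (38.4%) covered a protein-coding start and 344 stood within 1 kb beside one. Of all regions, 35.6% covered a start. The share over a start was 74.3% in the regions shared with all NTC libraries and 67.4% in those of all 6 KO libraries, whose regions were wider (below) and so cover a start more easily. The midpoint of the 650 promoter regions lay a median of 124 bp downstream of the nearest start (quartiles -71.5 and 558.75 bp), and 421 midpoints (64.8%) were downstream. Starts on opposite strands, as at bidirectional promoters, were found at 119 of the 650 (18.3%), close to the 16.6% of the regions shared with all NTC libraries.

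**Figure D1:**
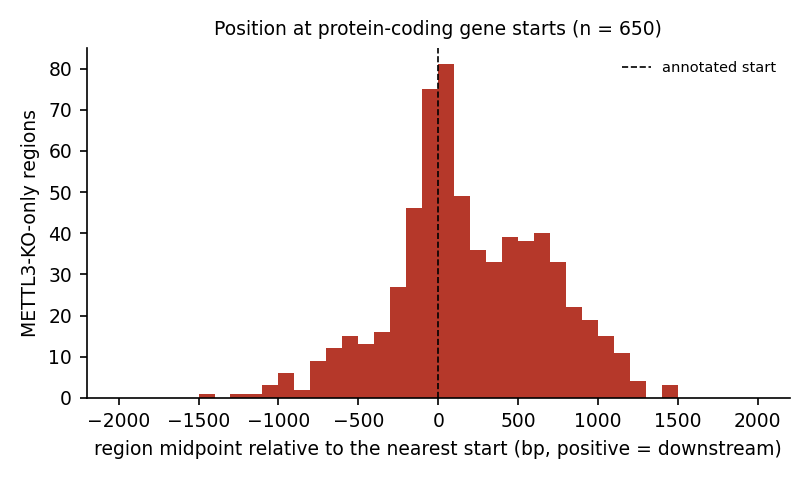
Histogram of the 650 METTL3-KO-only regions at protein-coding gene starts, by the distance in bp of the region midpoint from the nearest start (x axis, positive is downstream) and the number of regions per 100 bp (y axis). The highest bars stand next to the start, and a shoulder extends downstream, with 421 of 650 midpoints on that side.

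The regions had a lower median ratio of observed over expected CG dinucleotides than those shared with NTC, which covered a protein-coding start more often (74.3% against 38.4%). This CG ratio in the middle 300 bases had a median of 0.622, against 0.705 in regions shared with all NTC libraries and 0.493 in all regions. In METTL3-KO-only regions it was 0.741 where the region covered a protein-coding start, 0.568 beside a start and 0.466 away from protein-coding starts. The shared regions were not split in this way, so the ratio at like positions was not compared. Of 6 motifs searched on both strands of the same 300 bases, the GATA motif AGATAA was held by 11.2% of METTL3-KO-only regions and 15.2% of all regions, and the RUNX motif TGTGGT by 12.4% and 15.5%. The ETS motif CCGGAAG was held by 7.04% and 6.02%, the AP-1 motif TGANTCA by 6.16% and 6.51%, the KLF motif CCNCNCCC by 44.8% and 44.3%, and the CEBP motif TTGCNNNAA by 10.4% and 10.6%. In regions shared with all NTC libraries the GATA motif was held by 8.76%, RUNX by 10.9%, ETS by 13.0%, AP-1 by 4.93%, KLF by 54.0% and CEBP by 8.27%. For each of the 6 motifs the share of METTL3-KO-only regions thus lay between those of shared regions and of all regions. These shares describe letters in the window and no binding.

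The regions were narrow. The median width was 537.5 bp (quartiles 371.5 and 756, range 168 to 1870), against 1532 bp in regions shared with all NTC libraries and 1387 bp in those of all 6 KO libraries. A merged region grows with the number of lists that add a peak, so the widest peak per region in 1 library is the closer comparison. The widest METTL3-KO peak per METTL3-KO-only region had a median width of 425 bp in replicate 1 and 341.5 bp in replicate 2. Over every single peak there the medians were 418 and 333.5 bp. At regions shared with all NTC libraries the widest peaks of the same libraries gave 466 and 428 bp, while the widest NTC peaks there gave 1357, 1368.5 and 1395 bp. The widest METTL3-KO peaks were thus closer in width between the sets than the merged regions were.

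The signal was low in both METTL3-KO libraries and differed between them. The median was 1143 in replicate 1 (quartiles 632 and 1836, range 61.3 to 6819) and 539 in replicate 2 (quartiles 310 and 878, range 32.0 to 3385). The median over all single peaks was 1446 and 852 in these libraries, and 303 METTL3-KO-only regions (38.1%) were above it in replicate 1 and 216 (27.1%) in replicate 2. The signal of a region sums its peaks, so this compares unlike measures. Summed in the same way, regions shared with all NTC libraries had medians of 1593 and 895. Replicate 1 was the higher library in 669 regions (84.0%), with a median ratio of 1.99. The ratio was 1.70 in regions shared with all NTC libraries, so replicate 1 was the higher library there too. Spearman's rho between the 2 libraries was 0.51 across the 796 regions, a description over a signal range that the rule narrows.

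**Figure D2:**
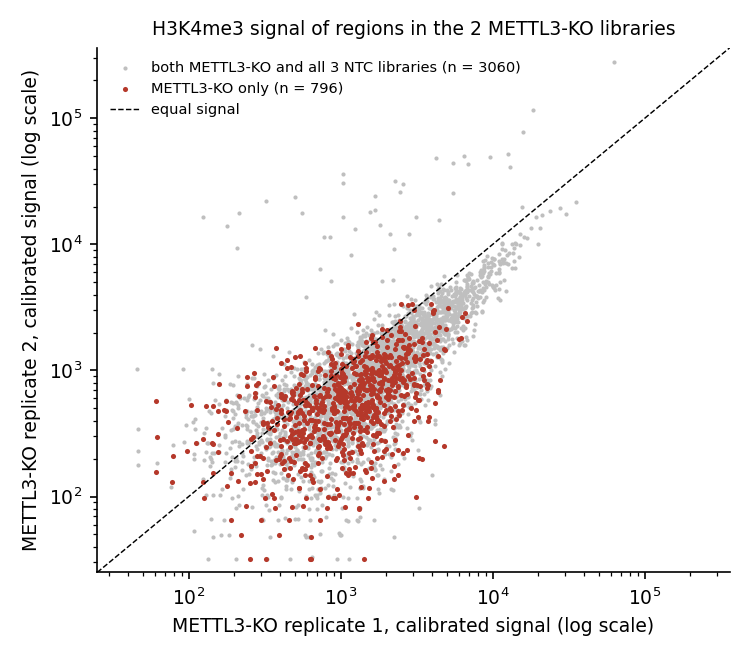
Calibrated H3K4me3 signal per region in METTL3-KO replicate 1 (x axis, log scale) and replicate 2 (y axis, log scale), with METTL3-KO-only regions in red, regions shared with all 3 NTC libraries in grey and equal signal as the dashed line. The red points reach 6819 and 3385 at most, lie within the grey cloud, and 669 of 796 fall below the line.

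METTL3-KO-only regions were the weak end of a larger set. In all, 2753 regions had a peak in each METTL3-KO library but lacked an NTC peak. Of these, 796 had no METTL14-KO or WTAP-KO peak, 527 had one in 1 of those 4 libraries, 347 in 2, 326 in 3 and 757 in all 4. The median METTL3-KO signal over these classes was 1143, 1957, 3445, 4817 and 7972 in replicate 1 and 539, 1016, 1657, 2291 and 4412 in replicate 2. The median width was 537.5, 711, 908, 1077.5 and 1387 bp. Signal and width were lowest where METTL3-KO stood alone, and the share at protein-coding starts moved little, from 81.0% to 84.3%. Both signal and width are taken over the merged region, which grows with the number of lists that add a peak. The widest METTL3-KO peak per region had medians of 425 and 341.5 bp (replicates 1 and 2) in METTL3-KO-only regions. In the class with peaks in all 4 it had 1277 and 1106 bp. The METTL14-KO and WTAP-KO lists held fewer peaks than the METTL3-KO lists (above), and the part of this in the absence of their peaks was not tested. Regions called in a single METTL3-KO library and in no other list were weaker still: 596 in replicate 1 alone with a median signal of 491, and 369 in replicate 2 alone with 297.

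**Figure D3:**
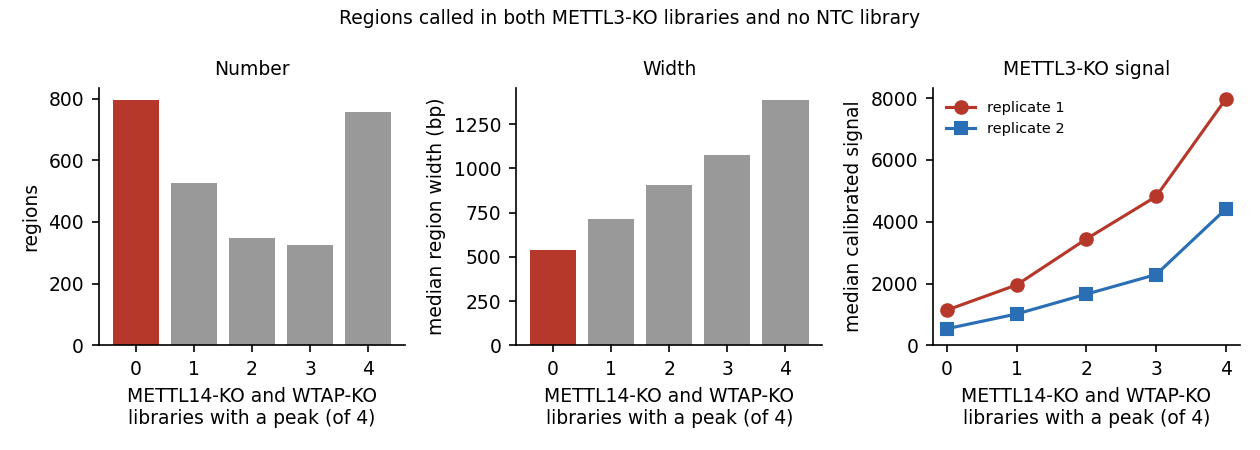
Regions called in both METTL3-KO libraries and no NTC library, by the number of the 4 libraries of METTL14-KO and WTAP-KO with a peak (x axis), with their number (left), median region width in bp (middle) and median calibrated signal in each METTL3-KO library (right). METTL3-KO-only regions are the red bars. Width is that of the merged region and signal the sum over its METTL3-KO peaks. Width and signal increase from 537.5 bp and 1143 (replicate 1) to 1387 bp and 7972.

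Among the promoter regions of highest signal were several at which no other library had a peak within 1 kb of any start of the gene. The 12 highest, ranked by the lower of their 2 METTL3-KO signals, were at ATP8A1, RNF146, RNF145, RAB20, CRLS1, AHI1, MIER1, CAPN7, NIPBL, LCP2, PANK2 and PDE3A. RAB20, a small GTPase of endosomes, had signals of 4120 and 2997 (replicates 1 and 2) at chr13:111213012-111213874 and a further METTL3-KO-only region of 2585 and 1531 next to it. NIPBL, which loads cohesin on chromosomes, had 2755 and 3291 at chr5:36877409-36878662. LCP2, the adaptor SLP-76 of platelet and T cell receptor signalling, had 6253 and 2661 at chr5:169723282-169724849. In these 3 genes neither NTC nor METTL14-KO nor WTAP-KO had a peak at a start, and the nearest NTC peak lay 55333, 1953 and 16897 bp away from the nearest region of each.

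The other 9 genes had a listed peak of another group at one of their starts. ATP8A1, a phospholipid flippase, had signals of 3922 and 3363 and no NTC peak but a peak in 1 METTL14-KO library. CAPN7, a calpain protease, had 4057 and 2840 and the same pattern. PDE3A, a cAMP phosphodiesterase, had 6819 and 2453, the highest replicate 1 signal of all, with no NTC peak but peaks in all 4 METTL14-KO and WTAP-KO libraries at a start. At these genes the METTL3-KO-only region was thus one of several marked stretches.

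RNF146, a ubiquitin ligase that reads poly(ADP-ribose), had 5064 and 3159 with an NTC peak 253 bp away. CRLS1, the cardiolipin synthase, had 4076 and 2983 with an NTC peak 477 bp away. MIER1, a corepressor that binds histone deacetylases, had 6549 and 2848 with one 320 bp away. PANK2, the mitochondrial pantothenate kinase, had 2475 and 2456 with one 294 bp away, and RNF145, a ubiquitin ligase of the endoplasmic reticulum, had 3039 and 3018 with one 1362 bp away. At AHI1, a protein of the primary cilium, 2954 and 3385 were measured over a start with a CG ratio of 0.963, the nearest NTC peak was 173661 bp away, and 1 NTC library had a peak at another annotated start.

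Wide METTL3-KO-only regions were few. The widest was PDE3A at 1870 bp, followed by DNAJC27, a Rab-related protein with a J domain, at 1714 bp, MIER1 at 1657 bp, NAF1, an assembly factor of box H/ACA ribonucleoproteins, at 1652 bp, and HSPA4L, an Hsp110 family chaperone, at 1591 bp. DNAJC27 had single peaks of 1700 and 1618 bp with signals of 3425 and 1678, a CG ratio of 0.995 and the nearest NTC peak at 49898 bp. NAF1 had 6164 and 1819, and HSPA4L 3123 and 483. No other group had a peak at a start of DNAJC27, NAF1 or HSPA4L. These 3 starts were listed as marked in METTL3-KO alone.

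Away from gene starts, several of the highest regions lay in repeated sequence. The 5 highest in gene bodies were in HPSE2, the heparanase homologue without heparanase activity (3070 and 2259), in RIPOR2, an inhibitor of RhoA (3445 and 1827), in PDZD8, a lipid transfer protein of the endoplasmic reticulum (2549 and 1747), and at 2 positions of the overlapping noncoding genes DANT1 and DANT2 on chromosome X (2325 and 1631, and 1737 and 1556). DANT1 and DANT2 span the DXZ4 macrosatellite, a tandem repeat. All 13 METTL3-KO-only regions of chromosome X lay there, between positions 114960276 and 115000100, and they made up 24.5% of the 53 intronic regions. Their signals ran from 544 to 2325 in replicate 1 (median 1588) and from 166 to 1631 in replicate 2 (median 1016), and all 13 were at least 84000 bp from an NTC peak.

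Over the whole of DANT1 and DANT2 (chrX:114929200-115085481) the METTL3-KO lists held 27 and 29 peaks, the METTL14-KO lists 17 and 3, the WTAP-KO lists 4 and 5, and the NTC lists 2, 1 and 2. The rule used these calls where they make up the 13 regions, so the counts are a description. On the whole of chromosome X the NTC lists held the most peaks, with 683, 692 and 683 peaks in NTC against 33 and 64 in METTL3-KO, 18 and 4 in METTL14-KO, and 19 and 29 in WTAP-KO. Of the 29 chromosome X regions called in both METTL3-KO libraries, 13 (44.8%) were METTL3-KO only. On the other chromosomes with such regions the share ran from 4.80% (19) to 26.1% (18), and on 21 and Y it was 0.

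Copies of a repeat share reads, so the 13 regions cannot be counted as 13 independent sites, and the placing of reads among them is uncertain. Counted in words of 31 bases on either strand, 23 of the 796 regions shared at least 10% of their words with another METTL3-KO-only region and 18 shared 50% or more. Without the 23 regions the set held 773, of which 83.8% lay at protein-coding starts.

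Protein-coding genes with a METTL3-KO-only region within 1 kb of a start numbered 735 of 20176 (3.64%). Distance was taken from the merged region. At some genes, among them NFE2, DIAPH1 and SCML4, only the peak of METTL3-KO replicate 1 therefore reached within 1 kb of a start. At 499 of the 735 (67.9%) no NTC library had a peak within 1 kb of any annotated start, at 141 all 3 NTC libraries had one, and at 95 either 1 or 2 had. The rule kept only regions without an NTC peak, so a high share is in part built in. The same share over all protein-coding genes is not given here. At 273 genes no library of the other 3 groups had a peak at a start, and at 226 METTL14-KO or WTAP-KO had one but NTC had none. Thus 273 of the 735 genes were listed as marked at their starts in METTL3-KO alone, fewer than those with a peak of another group. The rule also kept out METTL14-KO and WTAP-KO peaks, so this count is in part built in too. It is given as a description.

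Of 12 gene lists with 200 annotated genes, 19 genes (9.50%) had a METTL3-KO-only region, against 3.64% of all protein-coding genes. That base counts every annotated gene, also those without any METTL3-KO peak, and genes with many annotated starts are hit more easily. The share among genes marked in METTL3-KO is not given here, so a higher share in a list or family is no measure of preference. The erythroid transcription factors had the most, 5 of 12: GFI1B, LDB1, MYB, NFE2 and TAL1. All 5 had NTC peaks at a start, in all 3 libraries except at NFE2 with 1, so in these genes the region was an additional stretch. GFI1B, a repressor of erythroid and megakaryocytic genes, had 2783 and 1424 beside a start, 275 bp from an NTC peak. MYB, which keeps progenitors proliferating, had 1736 and 1389, 793 bp from one. LDB1, the bridging factor of the GATA1 and TAL1 complex, had 1634 and 875 at 3939 bp. NFE2, a subunit of the NF-E2 factor, had 858 and 321 at 210 bp, with only the replicate 1 peak within 1 kb of a start. TAL1, a partner of GATA1, had 496 and 266 over a start at 3125 bp.

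Of the heme and iron list 1 of 18 genes had any (5.56%, beside 3.64% of all protein-coding genes): CPOX, the coproporphyrinogen oxidase, with 2 regions of 3069 and 1183 and of 3744 and 774. Of the globins and membrane proteins 2 of 19 did (10.5%), among them HBD, the delta globin, with 938 and 391. At CPOX and HBD 2 NTC libraries had a peak at a start. No gene of the megakaryocyte list (15 genes), the myeloid list (19) or the MHC list (15) had a METTL3-KO-only region. At 3.64%, lists of this size would hold under 1 such gene each, so a count of 0 is near the background.

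Genes of the H3K4 methylation machinery were on the list with 3 of 18. KDM5A and KDM5B remove H3K4me3. KDM5B had 1764 and 994 over a start at chr1:202775366-202776214, with no peak of another group at its starts. KDM5A had 1395 and 535 beside a start, with no NTC peak there but peaks in all 4 METTL14-KO and WTAP-KO libraries. WDR82, a subunit of the SETD1 complexes, had 1658 and 713 with NTC peaks in all 3 libraries. No SETD1, KMT2 or common COMPASS subunit of the list other than WDR82 had such a region. Of the m6A list 2 of 19 did, the readers IGF2BP2 (563 and 927) and IGF2BP3 (3455 and 1035, and 811 and 81.2 at another region), both with peaks of every group at a start. No writer or eraser had one.

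The remaining lists gave 1 to 3 genes each. CISH, a cytokine-induced inhibitor of STAT5 signalling (1 of 17), had 1600 and 1903 over a start at chr3:50648798-50649856, which also lay within 1 kb of a start of MAPKAPK3. RPL24, a protein of the large ribosomal subunit (1 of 15), had 4844 and 1451 over a start at chr3:101404644-101405771. Both had no peak of another group at any start. IRF3, a transcription factor of innate immunity (1 of 16), had 581 and 585 with no NTC peak but peaks in all 4 other KO libraries. Of the cell cycle list 3 of 17 did: RB1, the retinoblastoma repressor (2438 and 1276), with no NTC peak but peaks in both WTAP-KO libraries, and CCND3, a D-type cyclin (1009 and 1341), and MYCN, a MYC family factor (1223 and 386), with peaks of all 3 NTC libraries. Among the 19 genes, CISH, KDM5B and RPL24 were thus those with no listed peak of another group within 1 kb of a start. The nearest NTC peaks to these regions lay 1380 bp (CISH), 1658 bp (KDM5B) and 5386 bp (RPL24) away. MAPKAPK3, at the CISH region, had peaks of 2 METTL14-KO libraries and 1 WTAP-KO library at a start.

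Gene families were looked at after the values were seen, 8 in all, grouped by the start of the gene symbol. Histone genes had a METTL3-KO-only region at 9 of 69 members (13.0%), all in the clusters of chromosome 6. At 8 of the 9 no NTC library had a peak within 1 kb of a start, beside 499 of the 735 genes with a region (67.9%). The 9 genes shared 7 regions, of which H4C12 had the highest lower signal (1617 and 1051), followed by H2BC5 (1438 and 939), H2AC13 with H2BC13 (1835 and 376) and H3C1 with H4C1 (1088 and 340). H3C4 (848 and 248), H3C12 (144 and 262) and H3C2 (238 and 84.4) were weak. Their nearest NTC peaks were 925 to 15609 bp away. Symbols starting with CDC had a region at 7 of 33 genes (21.2%) and RAB at 8 of 74 (10.8%). The others were near or below the share of all protein-coding genes, with ZNF at 19 of 515 (3.69%), TMEM at 9 of 239 (3.77%), RNF at 4 of 85 (4.71%), RPL at 1 of 52 (1.92%) and RPS at 1 of 45 (2.22%).

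The distance to the nearest NTC peak was spread over 4 orders of magnitude. Its median was 6638 bp (quartiles 1489 and 48583), from 187 bp at PANX1, a membrane channel, to 1866351 bp in an intron of ALCAM, a cell adhesion molecule. An NTC peak lay within 1 kb of 138 regions (17.3%), within 2 kb of 249 (31.3%) and within 10 kb of 430 (54.0%). At 20 regions NTC peaks lay within 2 kb on both sides. For the regions of all 6 KO libraries the median was 8167 bp and 27.9% lay within 2 kb, so nearness to NTC peaks was similar in both sets. Of the 366 regions over 10 kb from an NTC peak, 309 (84.4%) were at a protein-coding start.

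The nearest and the farthest regions show the range. PANX1 had 1434 in replicate 1 and 32.0 in replicate 2, the lowest replicate 2 value of the 796 and the largest ratio between replicates, 44.8. RAB6A, a GTPase of the Golgi, had 427 and 164 at 209 bp, and NFE2 followed at 210 bp. At the far end ALCAM had 1493 and 326, PTBP2, a neuronal splicing regulator, 589 and 97.2 at 1486250 bp, and ADGRB3, a brain adhesion receptor, 2161 and 1277 over a start at 1159080 bp. Regions within 2 kb of an NTC peak and those over 10 kb away had like widths (median 553 and 521 bp) and like signals (1140 and 1181 in replicate 1, 494 and 582 in replicate 2), while the CG ratio was 0.536 and 0.674.

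**Figure D4:**
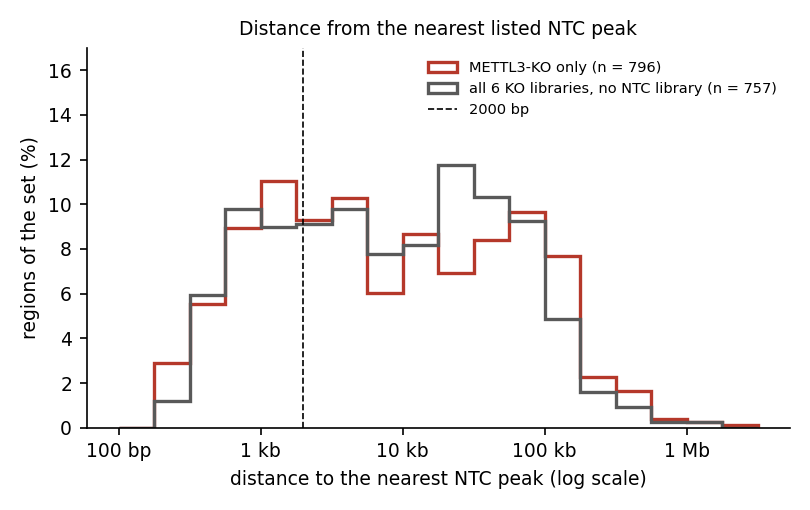
Distance from each region to the nearest listed NTC peak (x axis, log scale) as the share of regions in each of 2 sets (y axis, %), METTL3-KO-only in red and regions of all 6 KO libraries in grey, with 2000 bp dashed. Both outlines run from under 1 kb to over 1 Mb, with 31.3% and 27.9% within 2 kb.

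Other METTL3-KO signal was often close by. A region called in both METTL3-KO libraries and also in another group lay within 1 kb of 262 METTL3-KO-only regions (32.9%). A METTL14-KO or WTAP-KO peak lay within 1 kb of 245. With peaks up to 1000 bp apart merged into 1 region, 356 METTL3-KO-only regions were left, and with no other group's peak allowed within 2000 bp, 314. The number of regions thus depends on counting a gap in a marked stretch as a border.

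A peak over 2000 bp is not in any list, so a wide NTC peak over a METTL3-KO-only region would be missing from the NTC list. Such a peak would have to lie between the listed peaks that flank the region in the same NTC library. This gap, the region included, was over 2000 bp in all 3 NTC libraries at each of the 796 regions, the shortest being 2886, 2715 and 3118 bp in NTC replicates 1, 2 and 3 and the medians 139786, 142726 and 144244 bp. At 793 regions it was over 3000 bp in all 3, and at 37 the shortest of the 3 was under 5000 bp. At none of the 796 was the space too short for an unlisted wide peak. The criterion separates little, since 99.9% of the bases between NTC peaks lay in gaps over 2000 bp.

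The NTC peaks of regions just outside the rule were close to the limit. Among the 6871 regions with a peak in each METTL3-KO library, 519 had a peak in 1 NTC library, 539 in 2 and 3060 in all 3. The median NTC peak width was 1730 bp where 1 NTC library had a peak, 1668 bp where 2 had and 1347 bp where all 3 had, and 43.1%, 37.2% and 10.8% of these NTC peaks were over 1800 bp wide. Over all peaks of an NTC list 4.14% to 4.49% were. In regions with no METTL3-KO peak the NTC peaks were narrow instead, with medians of 220, 305 and 602 bp where 1, 2 or 3 NTC libraries had one, and 1.97%, 2.46% and 1.36% over 1800 bp. So where METTL3-KO had a peak and only some NTC libraries did, listed NTC peaks were over 1800 bp more often than in whole lists. A wide peak overlaps a METTL3-KO peak more easily than a narrow one. Where all 3 NTC libraries had a peak, the share of 10.8% was also above that of whole lists. The part of this overlap in the widths was not tested. Whether an NTC peak over 2000 bp lay over a METTL3-KO-only region was not tested, since no list can hold one.

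**Figure D5:**
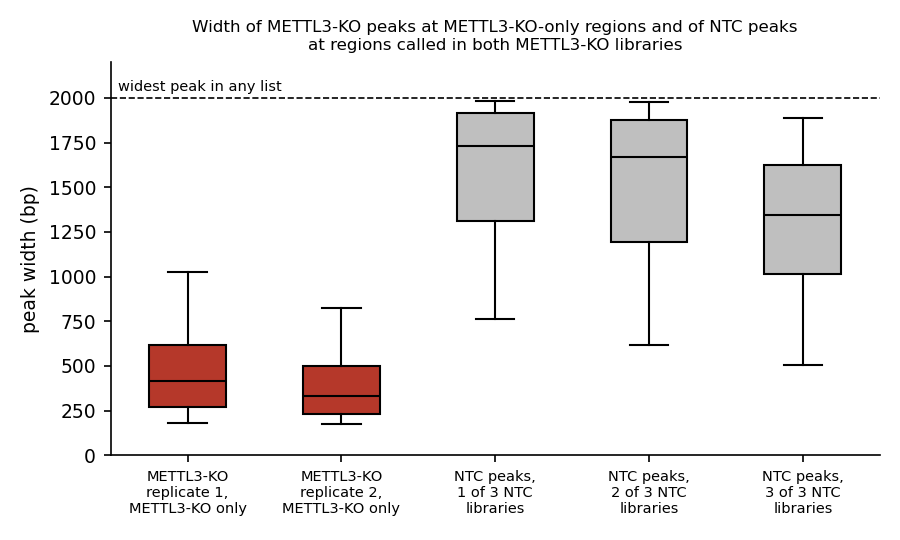
Peak width in bp (y axis) of the METTL3-KO peaks at METTL3-KO-only regions in each library (red) and of NTC peaks at regions called in both METTL3-KO libraries and in 1, 2 or 3 NTC libraries (grey), as boxes from the lower to the upper quartile with the median as a line and whiskers from the 5th to the 95th percentile. The dashed line is the widest peak in any list (2000 bp); the NTC medians are 1730, 1668 and 1347 bp.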

How the data were processed

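H3K4me3 CUT&RUN libraries of HEL cells were grouped by the genotype in the sample labels. The authors aligned reads to hg19 with Bowtie, calibrated by a yeast spike-in, removed duplicates with Picard and deposited 1 peak list per library, called on that library alone. The deposited value is a calibrated signal per peak, not a count. No count test was run, and none across samples, since the choice of regions used all 9 libraries. Peak starts were assumed to count from 0, and positions are given from 1. Regions were built from peaks overlapping by 1 bp or more (Python 3.11.15, pandas 2.3.3, numpy 2.4.6), which was checked against bedtools 2.31.1 on simulated peaks. Genes were taken from GENCODE on hg19, and sequence from hg19 (pysam 0.24.0). Figures were drawn with matplotlib 3.10.9.

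Regions named by signal were the 12 highest at protein-coding starts and the 5 highest in gene bodies, by the lower METTL3-KO signal (those outside genes are not reported here). Also named were the 5 widest, the 3 nearest to and 3 farthest from an NTC peak, and every gene of the 12 lists. The regions and lists were chosen with earlier results of these data known. Some other named items and sequence are left out too. The gene families and the shared-sequence count were added after seeing the data. Alternatives were the merging distance, overlap, a signal minimum, distance to other peaks, start windows and leaving out each library.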

Additional observations from a re-analysis of the deposited data

How the results depend on the processing

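The number of METTL3-KO-only regions was 796 and their share at protein-coding starts 81.7% (95% Clopper-Pearson interval 78.8% to 84.3%). Their median width was 537.5 bp (95% interval 507 to 552) and their median distance to an NTC peak 6638 bp (4999 to 9667). These intervals treat the regions as independent draws, which they are not, and hold no spread between libraries. They serve only to mark an alternative as moved. In all, 83 values under alternatives were computed for 5 results. Of these, 54 stayed within the interval (or within 1.5 times a count) and 29 moved. The number moved to 356 with merging within 1000 bp, 137 with METTL3-KO peaks at or above their library's median signal, and 314 with no other peak within 2000 bp, and the number with space for an unlisted wide NTC peak moved to the same 356, 137 and 314. Median width moved to 851 bp with merging within 1000 bp, 832 bp with the signal minimum, and 418 and 333.5 bp over single peaks of replicates 1 and 2. Median distance moved to 14147.5 bp with merging within 1000 bp, 24409.5 bp with no other peak within 2000 bp, 14385.5, 14471.5 and 16145.5 bp to peaks of NTC replicates 1, 2 and 3 alone, and 29817.5 bp to regions of all 3 NTC libraries. The share at starts moved to 86.9% with a 3000 bp window and 88.7% with starts of all genes. With each library left out in turn, the number ranged from 827 to 1486, the number with space from 827 to 1486, the share from 73.8% to 83.1%, the width from 290 to 579 bp and the distance from 5818 to 10486 bp. The number moved by over 1.5 times without METTL3-KO replicate 1 (1351) or replicate 2 (1486), where 1 METTL3-KO library alone decides. Without METTL14-KO replicate 1 it was 1182. At 2 of the 1351 regions no NTC library had the space. No paired analysis was run, because no result comes from a test.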
